A study of Mus musculus with 8 samples.

Results

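HM-1 and R1 are lines of mouse embryonic stem cells. The ratio of expression between them was compared between cells given nocodazole and cells without it. All 8 arrays of the series belong to this comparison, 4 labelled with nocodazole and 4 without, as taken from the sample titles. Each array is a cDNA array with 2 colours on which total RNA of both lines was hybridised together, so that one array gives one log2 ratio between the lines per probe. In the untreated group both lines were without the drug, and in the treated group both lines had received it. Per the labels HM-1 carried the dye Cy5 on 5 arrays (untreated replicates 1 and 2, nocodazole replicates 1, 2 and 3) and Cy3 on 3 arrays (untreated replicates 3 and 4, nocodazole replicate 4). The sources used here give no dose, length of treatment or passage. The question, as stated in the title and design text, is how far the expression profiles of the lines differ with and without the drug.

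Nocodazole binds tubulin and depolymerises microtubules. Cells without a spindle cannot satisfy the spindle assembly checkpoint, so the drug holds dividing cells in mitosis, with high mitotic cyclin and kinase activity and little transcription. Embryonic stem cells divide fast and have a short first gap phase, and they are often synchronised with this drug. Each value below compares ratios: it shows where the lines differ more, less or in the opposite direction with nocodazole, and gives no effect of the drug within a line, because treated and untreated cells of a line never shared an array. A ratio gives no level either, so the identity of the cells could not be checked against stem cell markers.

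An array held between 17928 and 19445 values for 20355 probes. The standard deviation of the log2 ratios lay between 0.78 and 0.91 on 7 arrays and was 1.28 on nocodazole replicate 3. The brightness behind a ratio is unknown. The labels do not settle which line is the numerator, nor whether the deposited ratios of the 3 Cy3 arrays were already turned to the direction of the Cy5 arrays. Signs are therefore those of the deposited table, no line is called higher, and the value with the Cy3 arrays turned is given for each named gene and list median whose sign then differs. Within the 5 Cy5 arrays the change has the same sign under both readings. Nothing in the labels says that replicates came from separate cultures, so the p-values measure only how far these arrays vary, which may be technical variation.

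No feature passed the test for a change of the ratio between nocodazole and untreated cells. Of 14015 features tested, 8726 with a gene symbol, limma with a term for the dye label called 0 (0%) at a Benjamini-Hochberg adjusted p under 0.05. The smallest adjusted p was 0.138, for probe 1241, which has no gene symbol here, and the next was 0.997. The unadjusted p was under 0.05 for 467 features, or 3.33%, of which 230 (1.64%) were positive and 237 (1.69%) negative. The fitted change had a median of -0.0048, and its quartiles were -0.22 and 0.18. The median 95% confidence interval, which is unadjusted, reached 0.68 to either side of the estimate on the log2 scale. A smaller change of a typical feature thus had an unadjusted limma p above 0.05. Passing the adjusted threshold took a larger change still. The absolute fitted change was above 1 for 1072 features (7.65%). Probe 1241, singled out after its values were seen, was at -0.97, -0.69, 0.17 and 0.36 on the untreated arrays in order of replicate and at 0.90, 0.77, 0.80 and 1.84 with nocodazole, a fitted change of 1.63 (SE 0.13). With the Cy3 arrays turned its fitted change was 0.51.

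**Figure D1:**
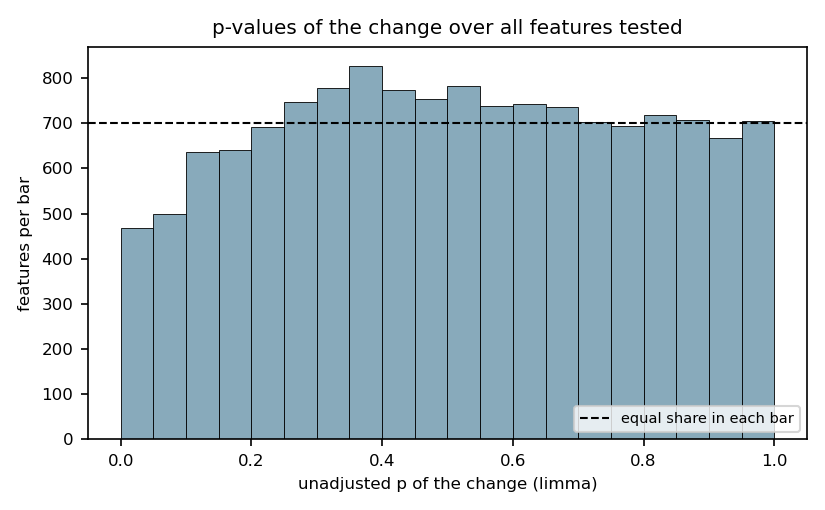
Histogram of the unadjusted limma p of the change for 14015 features, in 20 bars of equal width (x axis, p; y axis, features per bar; dashed line, 700.75 features, an equal share in each bar). The bar of the smallest p holds 467 features, below the dashed line.

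Without a model, the 4 nocodazole arrays lay entirely above the 4 untreated arrays for 123 of the 11681 features with values on all arrays (1.05%) and entirely below them for 120 (1.03%), together 243 (2.08%). Among these, the sign itself differed between the groups for 49. The ratio was positive on all untreated and negative on all nocodazole arrays for 29 features (0.248%) and the reverse for 20 (0.171%). By comparison, 65 features (0.556%) were positive and 29 (0.248%) negative on all 8 arrays. The 24 genes described next are the 12 in each direction with the smallest p among named genes whose groups did not overlap, so their separation is how they were chosen and not a finding. Their fitted changes were between 0.56 and 2.67 in size, with unadjusted p between 0.00078 and 0.0128 and an adjusted p of 0.997 for each in limma. Where several probes were averaged, different probes could stand behind different arrays. With only probes measured on all 8 arrays, 21 of the 24 genes had values, and 13 still had groups without overlap. Those 13 include the 10 genes with a single probe, whose values stay the same in that setting.

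Among the genes with lower ratios under nocodazole, Jdp2 had the smallest p. It encodes a basic leucine zipper protein that dimerises with Jun and represses targets of AP-1. Its ratio was 0.21, 0.57, 0.78 and 0.64 untreated, in order of replicate, and -0.46, -1.01, -1.39 and -0.68 with nocodazole. All untreated arrays were positive and all nocodazole arrays negative, a fitted change of -1.36 (SE 0.23) and of -1.34 on the Cy5 arrays alone. The membrane protein gene Tmem140 was at 3.15, 2.61, 2.58 and 0.78 untreated and at -0.48, -0.29, 0.14 and -0.25 with nocodazole. A large positive ratio on 3 untreated arrays thus stood against values near 0 on all nocodazole arrays (fitted change -2.67, SE 0.47). Abtb1, an ankyrin repeat and BTB domain protein, had the same form, with untreated ratios of 1.41, 2.73, 0.68 and 1.36 and nocodazole ratios of 0.04, 0.48, 0.08 and -0.10. Repin1, a zinc finger protein that binds DNA, was between 0.25 and 0.54 untreated and between -0.44 and -0.04 with nocodazole. Each of these 4 genes was measured by 1 probe.

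The other 8 genes with lower ratios under nocodazole rest on averages over several probes. H4c1, a gene of histone H4, was at 0.53, 1.07, 0.05 and 0.07 untreated and at -0.05, -0.28, -0.35 and -0.51 with nocodazole. Its probes differed: the difference of the group means was -2.14 for a probe with 5 values and -0.18 for the one with 8 values, and histone H4 copies are nearly alike in sequence, so the probes may bind several of them. Sav1, the adaptor that brings Hippo pathway kinases together, was at 0.98, 0.56, 1.36 and 0.81 untreated and at -0.26, 0.22, 0.23 and 0.24 with nocodazole. Here too 1 probe held the difference, at -1.57, while the other was at -0.07. Lpcat1, which makes phosphatidylcholine, gave -1.09 and 0.0022 for its probes, and Tbl2, a WD repeat protein, gave -2.84, -0.64 and 0.03.

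Col12a1, a collagen that associates with fibrils, and Mmp14, a membrane-bound protease of the extracellular matrix, both act in the matrix. Col12a1 was at 1.76, 0.11, 0.93 and 2.36 untreated and at -0.51, -0.39, -1.22 and -0.44 with nocodazole, with both probes negative (-2.198 and -1.18). Mmp14 was at 0.75, -0.13, 0.38 and 0.52 untreated and close together at -0.41, -0.45, -0.43 and -0.34 with nocodazole. One of its probes had values on nocodazole arrays alone, 2 in all, so different probes stand behind its groups, and the probe with 8 values gave -0.39. The secreted protease Adamts17 (fitted change -1.34) and the raftlin gene Rftn2 (-1.30) were negative for both of their probes.

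**Figure D2:**
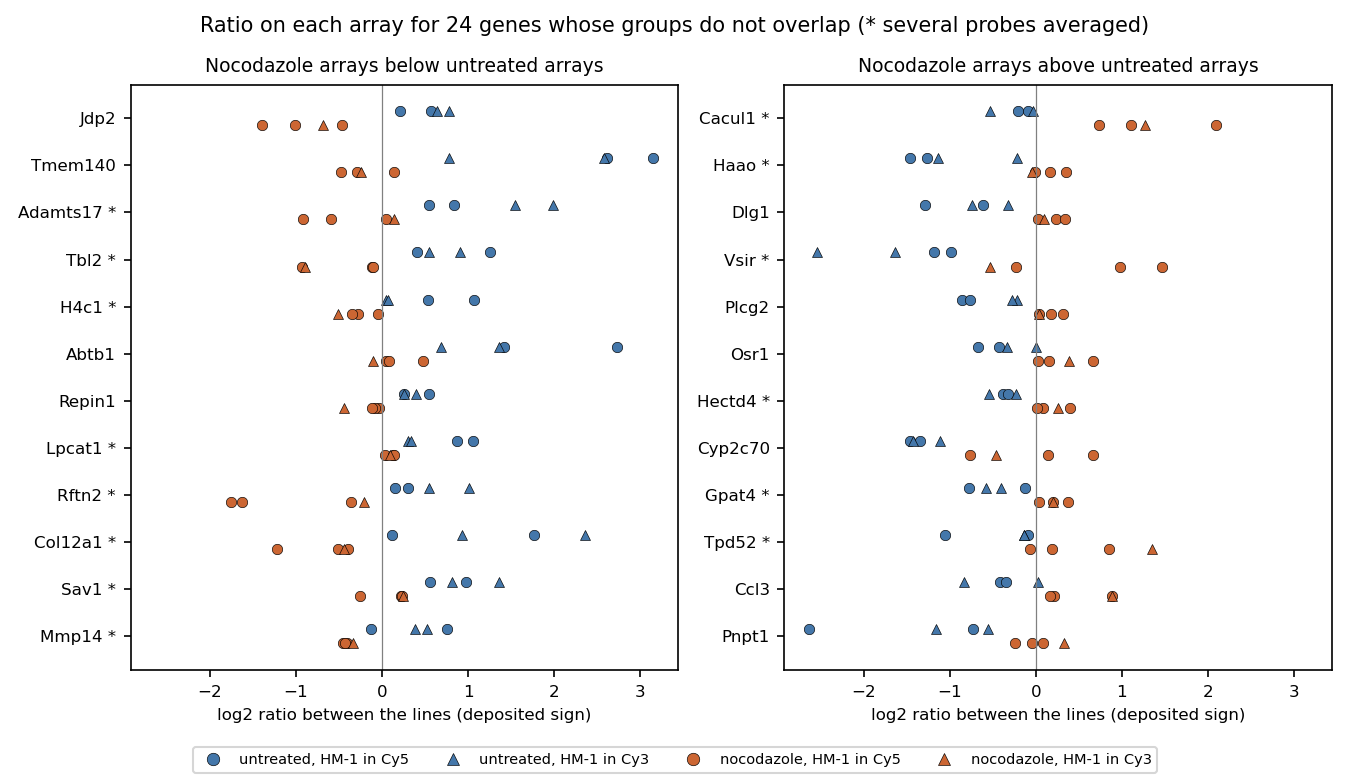
Log2 ratio between the lines on each of the 8 arrays (x axis, sign as deposited) for the 24 genes chosen because their groups did not overlap (y axis). Blue marks untreated and orange nocodazole arrays, circles HM-1 in Cy5 and triangles HM-1 in Cy3, and a star several averaged probes. Jdp2 lies between 0.21 and 0.78 untreated and between -1.39 and -0.46 with nocodazole.

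Among the genes with higher ratios under nocodazole, 6 had a single probe. Dlg1, a scaffold protein of cell polarity, was at -1.29, -0.61, -0.74 and -0.32 untreated and at 0.24, 0.03, 0.34 and 0.10 with nocodazole (fitted change 0.97, SE 0.23). Plcg2, a phospholipase that makes second messengers below immune receptors, was at -0.86, -0.76, -0.22 and -0.28 untreated and at 0.32, 0.04, 0.18 and 0.04 with nocodazole (0.74, SE 0.18). In both the untreated arrays were negative and the nocodazole arrays close to 0 and positive.

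Pnpt1, a mitochondrial exoribonuclease, was at -0.73, -2.63, -0.55 and -1.16 untreated and between -0.24 and 0.33 with nocodazole. Cyp2c70, a cytochrome of bile acid metabolism in the liver, was close together untreated, at -1.46, -1.34, -1.43 and -1.11, and spread with nocodazole, at -0.76, 0.14, 0.66 and -0.46. The chemokine gene Ccl3 (-0.83 to 0.03 untreated, 0.16 to 0.89 with nocodazole) and the zinc finger gene Osr1 of early kidney and heart mesoderm (-0.67 to 0.00, then 0.02 to 0.67) had smaller ratios. Several of these genes are known from differentiated tissues, and the brightness of their spots is unknown.

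Cacul1, a cullin domain protein that binds Cdk2 and promotes entry into S phase, had the smallest p in this direction. It was at -0.21, -0.09, -0.53 and -0.03 untreated and at 1.11, 0.73, 2.09 and 1.27 with nocodazole, a fitted change of 1.49 (SE 0.32). Its probes gave differences of 1.01 with 8 values and 1.78 with 5. Haao, an enzyme of tryptophan breakdown, was negative on all untreated arrays (-1.46, -1.26, -0.22 and -1.13) and near 0 with nocodazole. Its probes disagreed, at 2.42 with 7 values and -0.04 with 8, and its fitted change was -0.05 over the probe measured on all arrays. Vsir, an immune checkpoint receptor, had a fitted change of 1.73 over probes with 5 and 4 values. For the ubiquitin ligase gene Hectd4 (0.56), the acyltransferase gene Gpat4 (0.67) and Tpd52 (1.11) the probes shared a sign and differed widely in size, from 0.06 to 1.40, 0.09 to 2.30 and 0.14 to 1.73.

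With the Cy3 arrays turned, all of the 24 genes kept the sign of their fitted change, and 0 of them had an unadjusted p under 0.05. The turned estimates were between 0.04 and 0.75 times the main ones, with -0.37 for Jdp2, -1.30 for Tmem140, 0.39 for Cacul1 and 0.52 for Dlg1. Groups without overlap as deposited differ in the same direction on the Cy5 and on the Cy3 arrays. Turning the Cy3 arrays must therefore shrink each estimate. The smaller sizes follow from the choice of genes, and neither they nor the kept signs are a check. Over all features that reading gave 693 at an unadjusted p under 0.05 (4.94%) and again 0 past the adjusted threshold. Only 37 of 14015 features had an unadjusted limma p under 0.05 under both readings, all with the same sign. Both readings use the same 5 Cy5 arrays unchanged, so that shared sign is not a check either.

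**Figure D3:**
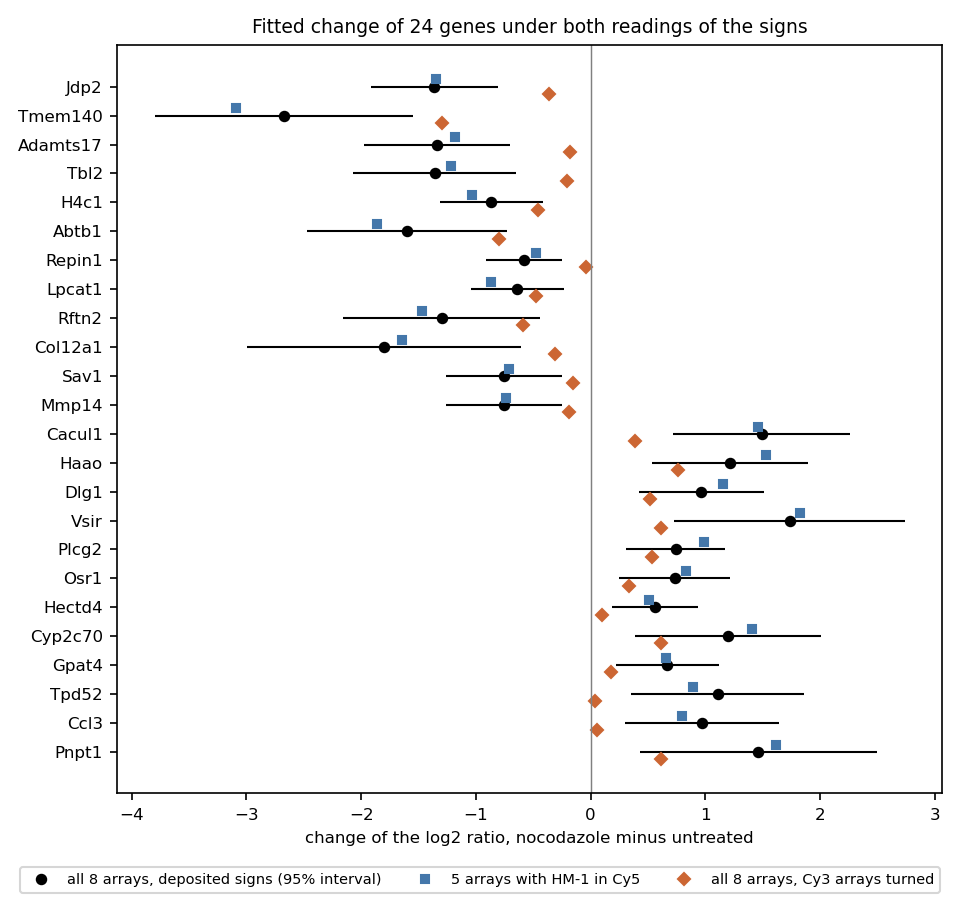
Fitted change of the log2 ratio, nocodazole minus untreated (x axis), for the 24 genes chosen for groups that do not overlap (y axis). Black points and lines give the fit of all 8 arrays with its 95% interval, blue squares the 5 arrays with HM-1 in Cy5, and orange diamonds the fit with the Cy3 arrays turned. The diamonds lie closer to 0 than the black points, as for Jdp2 at -0.37 against -1.36, which follows from how the genes were chosen.

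Other genes of small p had missing values or overlapping groups. Prkag2, the gamma subunit through which the AMP-activated kinase senses adenine nucleotides, was at 1.26, 0.91 and 0.56 on untreated replicates 2 to 4 and at -0.55, -0.51, -0.30 and -0.77 with nocodazole. Its groups did not overlap, and the fitted change was -1.62 (SE 0.18), or -0.20 with the Cy3 arrays turned. Esrrb, an orphan nuclear receptor that maintains naive pluripotency, was near 0 untreated (0.25, 0.15, -0.13 and 0.00) and at 2.21, 2.85 and 1.02 on nocodazole replicates 2 to 4. It had no value on nocodazole replicate 1. The fitted change was 1.83 (SE 0.33), or 0.97 turned. Il24, a cytokine of the interleukin-10 family, was at 0.57, 0.95 and 0.78 on 3 untreated arrays and at -0.85, -0.92 and -0.68 on 3 nocodazole arrays. The ciliary gene Rpgrip1l had a fitted change of -0.94 (SE 0.16) with values on all arrays.

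Zcrb1, Nme2 and Pla2g12a had few values or a large difference between dye labels. Zcrb1, a component of the minor spliceosome, was at 3.44 on untreated replicate 1 and at or below -0.22 on each of its other 5 arrays, so that its fitted change of -4.20 (SE 0.44) rests on that array. Nme2, a nucleoside diphosphate kinase, followed the dye label, at 1.12, 1.17 and 2.50 on the Cy3 arrays and between -1.66 and -0.38 on the Cy5 arrays, with group means of 0.21 and 0.22. Pla2g12a, a secreted phospholipase, was at 4.06 on nocodazole replicate 4 and between -1.52 and 0.98 elsewhere. With the Cy3 arrays turned the fitted changes of Nme2 and Pla2g12a were -0.05 and -0.297, and that of Il24 was 0.04. The adjusted p in limma was 0.997 for all of these genes.

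Differences on arrays of one dye label did not go with those on arrays of the other. The Cy5 arrays (3 nocodazole, 2 untreated) and the Cy3 arrays (1 and 2) share no array, so each gives the difference apart. Over 11681 features, Pearson's r between these differences was -0.07 and Spearman's rho -0.08, as a description, and 46.8% of the features had the same sign. Of the 405 features with values on all arrays and an unadjusted p under 0.05 on the Cy5 arrays alone, 168 (41.5%) had the same sign on the Cy3 arrays. If the Cy3 arrays are turned, these signs are reversed and the correlation becomes positive and as small. Single arrays of one group and dye label also agreed little in their ratios over these features. Pearson's r was 0.06 for untreated replicates 1 and 2 and 0.235 for untreated replicates 3 and 4. For nocodazole replicates 1 to 3 it was between -0.0050 and 0.05. Between untreated arrays of opposite dye label it was between -0.17 and -0.03 as deposited.

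Different probes of the same gene did not share a change either. For 1735 genes with exactly 2 tested probes, the fitted changes of the probes had an r of -0.0070 and the same sign in 46.8%. Where at least 1 probe had an absolute change above 1, in 277 genes, the larger change had a median size of 1.36 and that of the other probe a median size of 0.18. Both probes were above 1 for 11 genes. Where at least 1 probe had an unadjusted p under 0.05, in 101 genes, the signs agreed in 51, and in 1 gene both probes had one. The ratios themselves agreed little between probes: over 1147 genes with both probes measured on all arrays, r was 0.08 for the untreated mean and 0.03 for the nocodazole mean, and 0.02 for the difference of the groups.

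**Figure D4:**
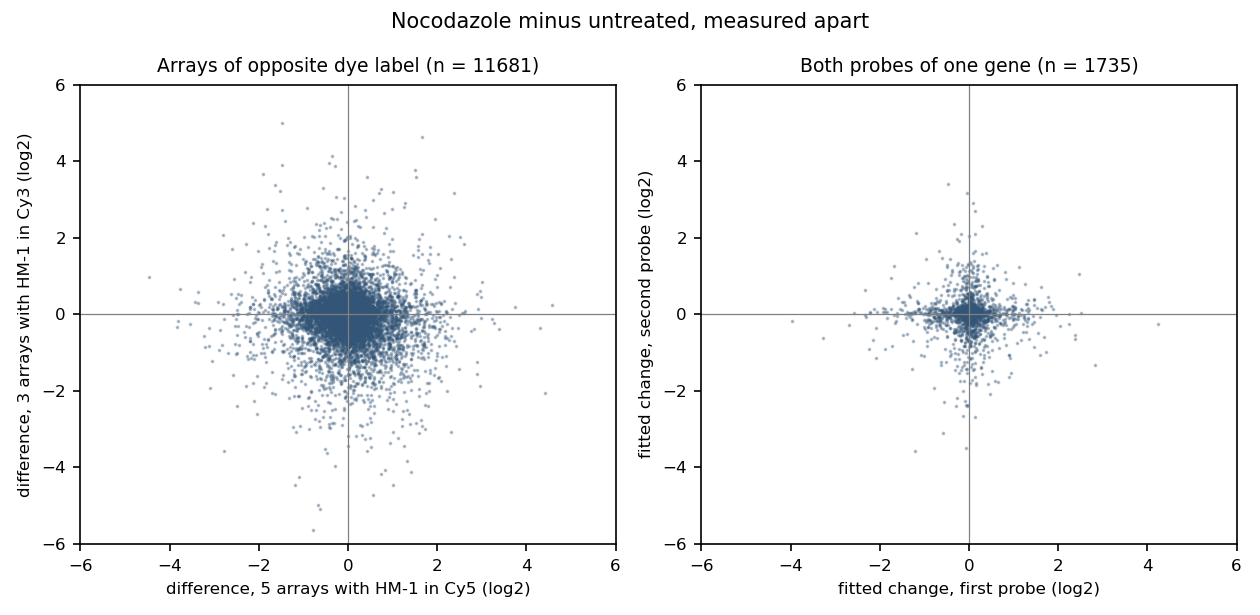
Nocodazole minus untreated on the log2 scale, measured apart. Left, the difference on the 5 arrays with HM-1 in Cy5 (x axis) against the 3 arrays with HM-1 in Cy3 (y axis), 1 dot per feature; right, the fitted change of the first (x axis) against the second probe (y axis) of 1735 genes. Left r is -0.07. On the right, where at least 1 probe was above 1 in size, the other probe had a median size of 0.18. Both probes were above 1 in size for 11 genes.

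Genes of the microtubule, the direct target of nocodazole, lay on both sides of 0. Of 20 tubulins and tubulin folding factors tested, 9 had a positive and 11 a negative change, with a median of -0.03, beside 49.1% positive and a median of -0.0048 over all features. Of the members, 1 positive and 1 negative had an unadjusted p under 0.05. Tubb4a, a beta tubulin of neurons and oligodendrocytes, was at 1.75, 0.54, 1.75 and 0.14 untreated and at -1.13, -0.41, -0.48 and 0.08 with nocodazole. Its probes gave -3.59 and -0.09 (7 and 8 values), so a single probe held its fitted change of -1.48 (SE 0.48). Tubb2a, another beta tubulin, was at -4.11, -3.67 and 0.53 on 3 untreated arrays and at 1.76, 1.30 and 0.18 on 3 nocodazole arrays, and its groups overlapped. Of 49 motors and microtubule-associated proteins, 21 were positive and 28 negative (median -0.03). The kinesins Kif1b (1.74, SE 0.67) and Kif5b (-1.46, SE 0.55), which carry cargo along axons and other tracks, differed in sign as deposited. Both were positive, at 1.74 and 0.74, with the Cy3 arrays turned. The microtubule stabiliser Map7 was at -0.595 (SE 0.23), or 0.04 turned.

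For the spindle checkpoint, the kinetochore and the anaphase-promoting complex, 15 of 24 members were positive, with a median of 0.11. Cdc16, a subunit of that complex, had a fitted change of 0.45 (SE 0.17), and Fzr1, its coactivator at the end of mitosis, -1.12 (SE 0.43). The probes of Fzr1 gave -3.295 with 6 values and 0.01 with 8. The median of this list was between -0.26 and -0.0020 on the untreated and between -0.01 and 0.05 on the nocodazole arrays. With the Cy3 arrays turned the median change was -0.02. Of 34 mitotic kinases, cyclins and cohesion factors, 19 were positive, with a median of 0.05 (-0.06 with the Cy3 arrays turned) and 0 members at an unadjusted p under 0.05. The condensin subunit Smc4 was at 1.34 (SE 0.55), the mitotic kinase Aurka at 1.01 (SE 0.47) and Nek6 at 0.71 (SE 0.36). Aurka was at 1.93 on nocodazole replicate 4 and between -0.97 and 0.19 on the others of its group. Its fitted change was -0.26 with the Cy3 arrays turned, and the group means of its probes differed by -0.07 (4 values) and 0.28 (7 values).

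Of 42 genes of DNA replication and of entry into S phase, 24 were positive (median 0.02, or -0.03 with the Cy3 arrays turned) and 2 had an unadjusted p under 0.05, both negative. Gmnn encodes geminin, which blocks the licensing of replication origins until mitosis ends. It was at 3.15, 2.10 and 0.78 on untreated replicates 2 to 4 and at 0.29, 0.19, 0.36 and -0.03 with nocodazole. The groups did not overlap, and the fitted change was -2.21 (SE 0.47), or -0.83 with the Cy3 arrays turned. E2f1, a transcription factor of S phase genes, had a fitted change of -0.72 (SE 0.29). Among 10 histone genes and histone factors, 5 were positive, and H4c1 alone had an unadjusted p under 0.05.

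The p53 targets and apoptosis genes, which respond to prolonged mitotic arrest in many cells, were spread around 0. Of 22 p53 targets 9 were positive, with a median of -0.07 and 0 members at an unadjusted p under 0.05. That median was 0.13 with the Cy3 arrays turned, 0.05 on the Cy5 arrays alone and 0.01 over probes measured on all arrays. Sesn1 (-1.20, SE 0.65) and Ccng1 (-0.95, SE 0.52), a stress-induced inhibitor of growth signalling and a cyclin, had the smallest p. One probe of Ccng1 with 6 values gave -4.26, while its probes with 8 values gave 0.10 and 0.20. Of 25 apoptosis regulators 13 were positive (median 0.0074, or -0.01 with the Cy3 arrays turned). Diablo, a mitochondrial protein that relieves caspase inhibition once released, was at -1.29, -1.69, 0.01 and 0.00 untreated and at -1.0, 2.13, 0.23 and 2.50 with nocodazole. Its probes gave 5.36 with 5 values and 0.08 with 8. Its groups overlapped, and the fitted change of 2.14 (SE 0.66) was 0.36 with the Cy3 arrays turned.

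Immediate early and AP-1 factors had a median of -0.26, with 15 of 21 members negative. The median was -0.14 with the Cy3 arrays turned, -0.08 on the Cy3 arrays alone and -0.13 over probes measured on all arrays. On nocodazole replicate 3 the list's median ratio was -0.57, while on the other three nocodazole arrays it was between -0.04 and 0.02 and on the untreated arrays between -0.04 and 0.11. That array also had the widest spread of ratios. When single arrays were left out the median change lay between -0.28 and -0.09. Beside Jdp2, the members of smallest p were Egr1, a growth factor response gene, at 1.03 (SE 0.38), and Atf4, a factor of the integrated stress response, at -1.07 (SE 0.62). The probes of Atf4 gave -4.70 with 4 values and 0.0040 with 8. In the AMP-activated kinase list, which was chosen with Prkag2 in view, 12 of 21 members were negative (median -0.06). Besides Prkag2, the mitochondrial coactivator Ppargc1a had a fitted change of -2.37 (SE 0.98) with overlapping groups. Its probe with 7 values gave -2.94. Its probes with 4 and 2 values had values on nocodazole arrays alone, so different probes stand behind its groups.

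Genes of naive pluripotency had lower median ratios with nocodazole on every array. The list median over 15 members with all values was 0.26, 0.18, 0.13 and 0.23 untreated and -0.04, 0.08, 0.03 and 0.07 with nocodazole, and 12 of 17 tested members had a negative change (median -0.11). With the Cy3 arrays turned the groups overlapped, at -0.23 to 0.26 and -0.07 to 0.08, and the median change was -0.05. Only Esrrb had an unadjusted p under 0.05, in the opposite direction. Klf2, a factor of the naive state, was at 0.53, 0.45, 0.89 and 0.85 untreated and at -0.95, 0.71, 0.52 and -1.44 with nocodazole, a fitted change of -1.08 (SE 0.52). That change was -0.40 on the Cy5 arrays alone and 0.57 with the Cy3 arrays turned. The untreated arrays were alike and the nocodazole arrays split in sign, which did not follow the dye.

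As deposited, markers of other cell types that such cultures can hold differed mainly on nocodazole replicate 1. The endoderm list had a median ratio of 0.51 there, against -0.57 to -0.29 on the other nocodazole arrays and -0.52 to -0.16 untreated. Its median change was 0.14, with 13 of 20 members positive, and -0.02 without that array. Feeder fibroblast genes (0.14 on that array, -0.28 to -0.17 on the other nocodazole arrays) had a median change of 0.05, with 20 of 33 positive, and -0.08 without it. Actin and adhesion genes (0.22, against -0.27 to -0.18 on the other nocodazole arrays) had a median change of 0.0012 with 21 of 42 positive, -0.11 without it and -0.04 with the Cy3 arrays turned. Dab2, an endocytic adaptor of primitive endoderm, was between -1.21 and -0.92 untreated, between -1.22 and -0.82 on 3 nocodazole arrays, and at 1.27 on nocodazole replicate 1. Its fitted change was 0.47 (SE 0.57), and -0.02 without that array. Of 6 trophectoderm genes 5 were positive (median 0.10, or -0.06 with the Cy3 arrays turned). Turning the Cy3 arrays also widened the ranges of the list medians. Endoderm then lay between -0.52 and 0.24 untreated and between -0.57 and 0.51 with nocodazole. Feeder fibroblast genes reached 0.20 untreated and 0.23 with nocodazole, and actin and adhesion genes 0.28 and 0.22. In that reading nocodazole replicate 1 no longer had the highest median of the feeder fibroblast or the actin and adhesion list. The part of these cell types in the changes described here was not tested. Nor was it tested whether the ratios of nocodazole replicate 1 run in the same direction as those of the other arrays.

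Among genes of basic cell functions, most members of oxidative phosphorylation, the mitochondrial respiratory complexes, had a positive change. Of 64 members 45 were positive (70.3%), with a median of 0.09, and 0 had an unadjusted p under 0.05. The median ratio followed the dye label in untreated cells, at 0.07 and 0.02 on the Cy5 and -0.19 and -0.21 on the Cy3 arrays, and on nocodazole replicate 4, also Cy3, it was -0.06. The median change was 0.02 on the Cy5 arrays alone and -0.03 with the Cy3 arrays turned. Cytosolic ribosomal proteins were at a median of -0.0050 with 25 of 55 positive. Their untreated median ratio followed the dye label too, at 0.18 and 0.09 on the Cy5 and -0.19 and -0.13 on the Cy3 arrays. So did that of the trophectoderm list, at 0.0093 and 0.0075 against -0.32 and -0.32. Rpl39, which lines the exit tunnel of the large subunit, was at -4.27, -4.18 and 0.12 on 3 untreated arrays and between -0.50 and 0.21 with nocodazole.

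Heat shock proteins and chaperonins were positive in 20 of 32 (median 0.03, or -0.01 with the Cy3 arrays turned), and the 3 members with an unadjusted p under 0.05 were negative as deposited. These were Hspa4 (-1.43, SE 0.53) and the inducible Hspa1b (-0.37, SE 0.15), both chaperones of the cytosol, and Dnajc3 (-0.695, SE 0.26), a cochaperone of the endoplasmic reticulum. They were at 0.29, -0.01 and -0.52 with the Cy3 arrays turned. Hspa1b was at 0.24, 0.26, 0.45 and 0.50 untreated and at -0.02, 0.15, -0.29 and -0.03 with nocodazole, without overlap. In DNA repair 16 of 33 were positive (median -0.0016). Ercc8, which recruits repair to stalled transcription, had a fitted change of 1.76 (SE 0.38), and Fancl, a ubiquitin ligase of the Fanconi pathway, of -0.45 (SE 0.16). One probe of Fancl with 5 values gave -2.21, while its probes with 8 values gave -0.09 and 0.10, and its fitted change was -0.09 with the Cy3 arrays turned. Over all lists, 24 of 566 genes had an unadjusted p under 0.05 (4.24%, against 3.33% of all features), 8 positive and 16 negative.

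**Figure D5:**
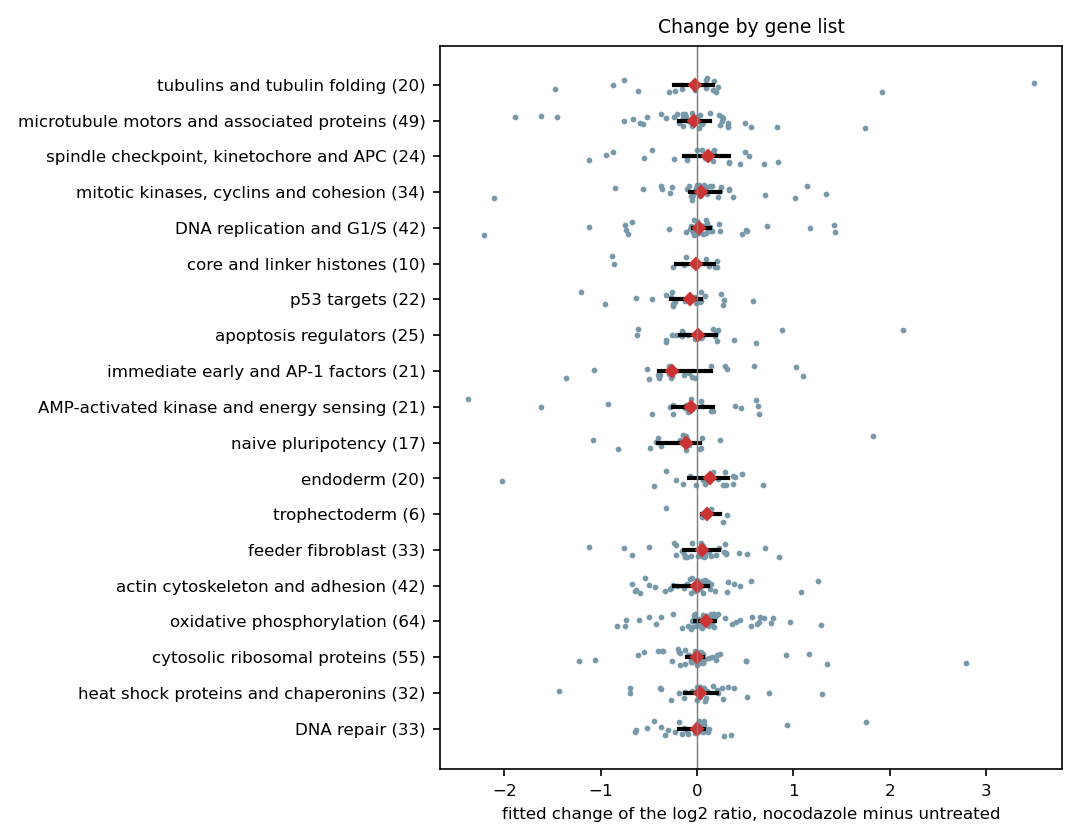
Fitted change of the log2 ratio, nocodazole minus untreated (x axis), by gene list, with the number of members tested in brackets (y axis). Dots are members, diamonds the list medians and bars the quartiles. Medians lie between -0.26 (immediate early and AP-1 factors) and 0.14 (endoderm), within the spread of the members.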

How the data were processed

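Mouse total RNA of both lines was measured on 8 arrays with 2 colours. The deposited values are log2 ratios, 1 per probe and array, per the file's values; how the authors corrected and normalized them is not stated. The labels' protocols speak of organs and of a reference pool from animals, while the channel labels name HM-1 and R1 on every array. The labels swap the dyes on 37.5% of the arrays, and the design text speaks of 50%. Values with an absolute log2 above 10 (74 to 203 per array), taken here for a code because they are positive on every Cy5 array and negative on every Cy3 array, were set to missing. Arrays were centred on their median, and probes of 1 symbol were averaged. Symbols came from the platform's annotation (14030 of 20355 probes with 1 symbol, 5 with several, 6320 with none), 13994 matched to RefSeq genes of GRCm38.p6.

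Features with values on at least 3 arrays of each group were tested with limma 3.58.1 (lmFit and eBayes, R 4.3.3) on all 8 arrays, with the group and the dye label of HM-1 as terms. Tests were two-sided with Benjamini-Hochberg adjustment over all features at a threshold of 0.05, and 25 alternatives were run. The model was tested on simulated data. Errors printed are standard errors of this fit. The number of arrays limits the precision. The comparison, the members and the 19 gene lists were chosen with earlier results of these data known. Genes named are the 12 per direction of smallest p among named genes whose groups do not overlap, the 10 named genes of smallest p, and the 3 of smallest p per list.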

Additional observations from a re-analysis of the deposited data

Results flagged for a closer look

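Dixon's ratio was computed in 137 groups of 4 arrays and passed its 95% critical value in 8, where chance gives about 1 in 20, or 6.85. Tpd52 was at -1.05 on untreated replicate 2 and between -0.14 and -0.09 on the others of its group. Col12a1 was at -1.22 on nocodazole replicate 3 and between -0.51 and -0.39 on the others. Sav1 was at -0.26 on nocodazole replicate 1 and between 0.22 and 0.24 on the others. Nme2 was at 2.50 on nocodazole replicate 4, the only nocodazole array with HM-1 in Cy3, and between -0.66 and -0.38 on the others. Ccng1 was at 1.58 on untreated replicate 1 and between -0.23 and 0.01 on the others. Dab2 was at 1.27 on nocodazole replicate 1 and between -1.22 and -0.82 on the others. Probe 1241 was at 1.84 on nocodazole replicate 4 and between 0.77 and 0.90 on the others. The list of immediate early and AP-1 factors had a median ratio of -0.57 on nocodazole replicate 3 and between -0.04 and 0.02 on the others.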

How the results depend on the processing

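The count of features past the adjusted threshold stayed at 0 under the alternatives tried, except that it was 1 without untreated replicate 1 (a probe without a gene symbol, change 3.39, SE 0.19, limma adjusted p 0.0487, against 2.66 on all arrays), so leaving out 1 array gave between 0 and 1. The smallest adjusted p ranged from 0.0487 to 0.96. The count at an unadjusted p under 0.05 was 467, lay between 371 and 583 when 1 array was left out, and was 766 on the Cy3 arrays alone and 300 with only probes measured on all 8 arrays, which tests fewer features. That last setting was chosen after seeing the data, as were the non-overlap counts under other settings and opposite dye labels for nocodazole replicates 1 and 2. An opposite label changed only the dye term, and the ratios of that array kept their deposited sign. These settings therefore do not show what a reversed ratio would do. Features whose groups did not overlap numbered 243 of 11681, and 416 of the same 11681 with the Cy3 arrays turned.

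The fitted change was recomputed for 58 features named in the text, and 18 reversed under at least 1 alternative. With the Cy3 arrays turned 8 reversed: Nme2 (-0.05), Il24 (0.04), Pla2g12a (-0.30), Map7 (0.04), Kif5b (0.74), Aurka (-0.26), Klf2 (0.57) and Hspa4 (0.29). With only probes measured on all arrays, where 38 had a value, Haao (-0.05), Fzr1 (0.05), Ccng1 (0.11) and Fancl (0.03) reversed. With coded values kept Vsir (-1.15), Adamts17 (0.42), Mmp14 (1.06), Aurka (-1.95) and Nek6 (-1.97) reversed. On the Cy3 arrays alone Ccng1 (0.19), Atf4 (0.37) and Dab2 (-0.01) reversed, and leaving out 1 array gave Dab2 between -0.02 (without nocodazole replicate 1) and 0.73. The cause was not tested. Replicate numbers showed no clear pairing of the arrays. Deviations of arrays with the same number correlated between -0.05 and 0.13, and those with different numbers between -0.13 and 0.14. Of 8 arrays, 4 correlated best with their own number, and these values do not settle whether the numbers pair the arrays. With the replicate number as a block, 616 features had an unadjusted p under 0.05 and 0 passed the adjusted threshold. The 8 arrays limit the precision, and no signal over background was used here.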
